A study of Rattus norvegicus with 10 samples.

Results

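The transcriptome described here is that of sorted adult rat β-cells that had received only the negative control siRNA (siCtrl). Its members were chosen by level: the TPM values of an Ensembl gene's transcripts (TPM being abundance corrected for transcript length and library size) were added up in each library, and a gene was kept when the sum was 1 or more in all 5 siCtrl libraries. This left 11032 of 23918 genes, 46.1% of the table. The study asked what silencing of the transcriptional repressor Scrt1 does to β-cells, and these 5 of its 10 libraries were the controls of that experiment. The islets came from adult Sprague-Dawley rats, were dispersed with trypsin and were sorted by FACS on the autofluorescence of β-cells. The sorted cells were plated on matrix laid down by a rat bladder cancer cell line, transfected by Lipofectamine RNAiMAX with an On-Target plus control siRNA from Dharmacon, and lysed 48 h later. All 5 libraries therefore describe cells that had been sorted, cultured and transfected, and no untransfected or freshly isolated cells were analysed here. Whether each library came from separate animals is not given in the labels, so the spread reported is that between these libraries. Values are given as mean ± SD over the 5 libraries (n = 5) unless stated otherwise, and no groups were compared, because a single group is described.

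β-cells store insulin in dense-core granules and release it when the metabolism of glucose raises ATP, closes ATP-sensitive potassium channels and opens calcium channels. Rats carry a pair of insulin genes, Ins1 and Ins2, which encode near-identical hormones. The identity of the adult cell is held by transcription factors such as Pdx1, Mafa, Nkx6-1 and Neurod1, several of which bind the insulin promoters directly, while a group of housekeeping genes, among them Ldha and Hk1, is kept unusually low.

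The promoters of the 3 named genes with the highest levels, Ins1, Ins2 and Iapp, are printed because they head the ranking and because the factors listed further on are known to bind the insulin promoters. The sequences are from RefSeq, build GRCr8, and run from 250 bases before to 50 bases after the annotated start. Capitals mark TAAT or its complement ATTA (the core bound by homeodomain factors such as Pdx1), CATCTG or CAGATG (an E-box form) and TATAAA or TTTATA, on both strands, and overlapping matches run together.
Ins1, chr1:261185869-261186168, plus strand: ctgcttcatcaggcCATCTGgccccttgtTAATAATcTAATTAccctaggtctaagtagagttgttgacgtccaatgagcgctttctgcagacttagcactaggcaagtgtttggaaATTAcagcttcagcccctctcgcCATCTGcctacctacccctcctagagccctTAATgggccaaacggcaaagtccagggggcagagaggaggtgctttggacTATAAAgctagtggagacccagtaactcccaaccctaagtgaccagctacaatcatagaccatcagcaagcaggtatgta
Ins2, chr1:207273756-207274055, minus strand: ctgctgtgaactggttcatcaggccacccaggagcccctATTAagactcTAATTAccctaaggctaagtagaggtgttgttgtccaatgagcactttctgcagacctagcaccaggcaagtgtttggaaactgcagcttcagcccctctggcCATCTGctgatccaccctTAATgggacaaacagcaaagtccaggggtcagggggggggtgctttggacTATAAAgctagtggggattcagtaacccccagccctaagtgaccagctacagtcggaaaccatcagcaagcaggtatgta
Iapp, chr4:176967847-176968146, plus strand: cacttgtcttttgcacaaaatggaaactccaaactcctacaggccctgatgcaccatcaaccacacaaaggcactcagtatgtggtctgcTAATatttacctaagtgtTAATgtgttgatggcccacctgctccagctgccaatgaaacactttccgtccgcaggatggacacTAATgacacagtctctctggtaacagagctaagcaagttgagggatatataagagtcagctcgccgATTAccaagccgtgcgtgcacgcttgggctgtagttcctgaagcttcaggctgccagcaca
Counting overlapping matches separately, TAAT or ATTA occurred 6 times in the Ins1 window, 4 times in that of Ins2 and 4 times in that of Iapp. CATCTG occurred 2 times, 1 time and 0 times, in the same order. TATAAA began 30 bases before the start in both insulin promoters. This exact form did not occur in the Iapp window, which does hold the letters tatataa. Of all 33469 rat promoters of this length, 60.6% held TAAT or ATTA, 16.6% held CATCTG or CAGATG and 14.2% held TATAAA or TTTATA. Among the 9001 promoters whose symbol matched a kept gene the shares were 41.8%, 10.1% and 6.41%. The Ins1 and Ins2 windows were identical at 254 of 287 aligned bases. These matches describe letters only and do not show binding.

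Library depth was similar. The deposited values correspond to 12975087 to 16452114 reads per library. Between 11654 and 11762 genes reached 1 TPM in each library, 1404 genes did so in some libraries but not all, and 11482 did so in none. The kept genes held 99.7% ± 0.0337 of all TPM. Pearson's r of log2(TPM + 1) across the kept genes ran from 0.979 to 0.989 over the 10 pairs of libraries, and Spearman's rho from 0.974 to 0.987. These are correlations across genes, which are not independent replicates. Replicates 4 and 5 were the most alike pair by both measures. Of the kept genes, 1112 (10.1%) carried only a clone or placeholder name. Just inside the threshold lay Slc26a5, Amz1 and Slamf1, whose lowest libraries stood at 1.0002, 1.0006 and 1.0007 TPM. Just outside lay Cpne2, Naif1 and Tbc1d2, with lowest libraries of 0.9999, 0.9995 and 0.9973 TPM. The means of these 6 genes, 1.20 to 1.71 inside and 1.24 to 1.55 outside, overlapped.

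The levels of the kept genes spanned more than 5 orders of magnitude and were concentrated in very few genes. Of 11032 genes, 6411 had a mean of 10 TPM or more, 634 reached 100, 32 reached 1000 and 9 reached 10000. The 10 highest genes took 58.4% ± 4.81 of all TPM, the 100 highest 69.5% ± 3.37 and the 1000 highest 82.8% ± 2.05. Between 3 and 8 genes were enough to reach 50% of a library's TPM, whereas 90% required 1937 to 2960 genes. When the insulin genes were left out of both sides, the next 100 genes held 47.9% ± 4.65 of the remaining TPM.

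**Figure D1:**
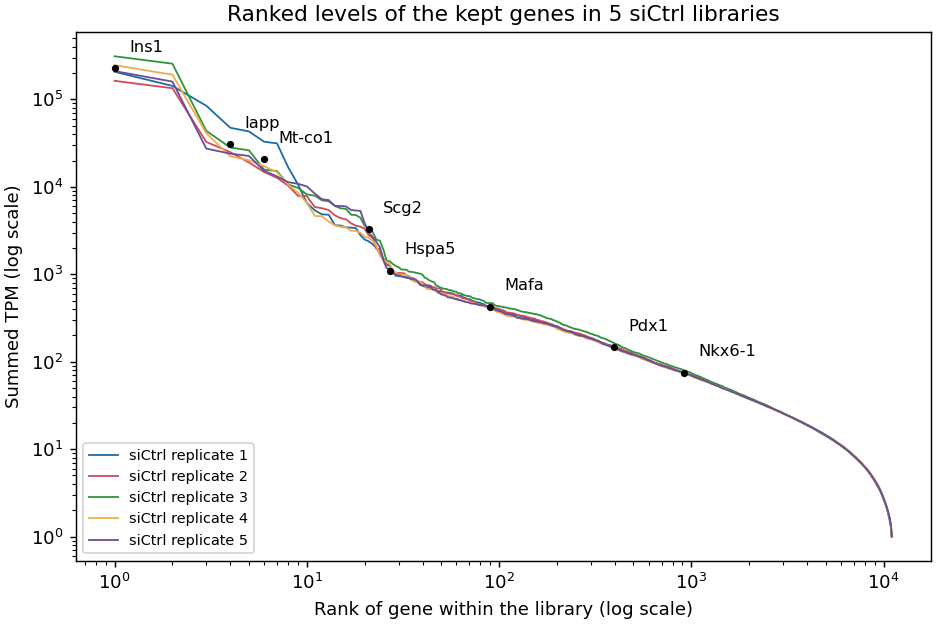
Summed TPM of the kept genes (y axis, log scale) against their rank within each library (x axis, log scale), 1 line per siCtrl replicate, with dots at the mean TPM and rank of 8 named genes. The lines part among the highest genes, where replicate 1 stands above the others between Ins2 and Mt-co1, and run together below about the level of Mafa.

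Ins1 headed the ranking in every library and Ins2 followed in every library. Ins1 stood at 207156, 163186, 311613, 246689 and 210944 TPM in siCtrl replicates 1 to 5, a mean of 227918 ± 55378. Ins2 stood at 142784, 134339, 256381, 191654 and 159929 TPM, a mean of 177017 ± 49493. Both genes were lowest in replicate 2 and highest in replicate 3, and their ranges overlapped although Ins1 was above Ins2 in 5 of 5 libraries. The ratio of Ins1 to Ins2 varied less than either gene and was 1.30 ± 0.0970. Because the transcripts are alike, reads that match both were divided between them by kallisto, and the split is less certain than the sum. Together the insulin genes took 34.7%, 36.2%, 49.2%, 45.8% and 40.8% of the TPM in replicates 1 to 5.

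That share depends on how length is corrected. The insulin transcripts are short, 445 and 446 nt, and the deposited effective length subtracts 199 nt, which leaves 246 and 247 nt. In reads, Ins1 and Ins2 took 11.3% ± 2.52 of each library, against 41.4% ± 6.17 of TPM. Divided by the full transcript length, the same reads gave 33.4%. Ins1 and Ins2 stood first and second on each of the length-corrected scales.

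Iapp, which encodes the amyloid peptide released together with insulin, ranked below Ins1, Ins2 and a gene without a descriptive name. It stood at 31429, 32635, 43747, 22338 and 22592 TPM in replicates 1 to 5, a mean of 30548 ± 8804. Like the insulin genes it was highest in replicate 3, although as a share of TPM it was highest in replicate 2 (3.97% against 3.79%), and its lowest libraries were replicates 4 and 5, so that the ratio of Iapp to Ins2 ran from 0.117 in replicate 4 to 0.243 in replicate 2. Ucn3, a peptide of mature β-cells that acts on neighbouring δ-cells, came next among the hormones, at 957, 1036, 1247, 912 and 1140 TPM, with no overlap with Iapp above or Gcg below it.

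Of the 25 highest genes, 12 were mitochondrially encoded and 4 carried only clone or placeholder names. The named remainder besides Ins1, Ins2 and Iapp were Gnas, which encodes the stimulatory G protein α-subunit, Fth1 (ferritin heavy chain), Scg2 and Resp18 (granule proteins), Cpe (the carboxypeptidase that trims prohormones) and Ubb (ubiquitin). Gnas had 4482 ± 1185 TPM, Fth1 3829 ± 1505, Scg2 3289 ± 275, Cpe 2610 ± 393, Ubb 2151 ± 181 and Resp18 1561 ± 213. Fth1 was the most variable of them and ran from 2017 TPM in replicate 1 to 6041 in replicate 3, while Scg2 and Ubb varied by 8.36% and 8.39% (CV, the SD as a percentage of the mean). The order in this part of the ranking was loose: of 24 pairs of neighbours, 6 kept their order in 5 of 5 libraries and only 1, Ins2 above AABR07015057.1, had ranges that did not overlap.

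Replicate 1 stood apart in the 4 genes without a descriptive name. AABR07015057.1 had 84674 TPM in replicate 1 and 24950 to 41195 in the other 4 libraries. AABR07000398.1 had 47413 against 9721 to 14681, AABR07015081.2 had 43030 against 14755 to 20189, and LOC500035 had 32818 against 4720 to 10582. Together they took 20.6% of the TPM of replicate 1 and 5.33% to 9.06% of the others, which lowers the share left for every other gene of that library. They are not 4 independent measurements: AABR07015081.2 and a transcript of AABR07015057.1, both 666 nt long, carried the same estimated count in each library, as happens when reads fit both equally and are split. What these gene models encode is not named in the files.

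**Figure D2:**
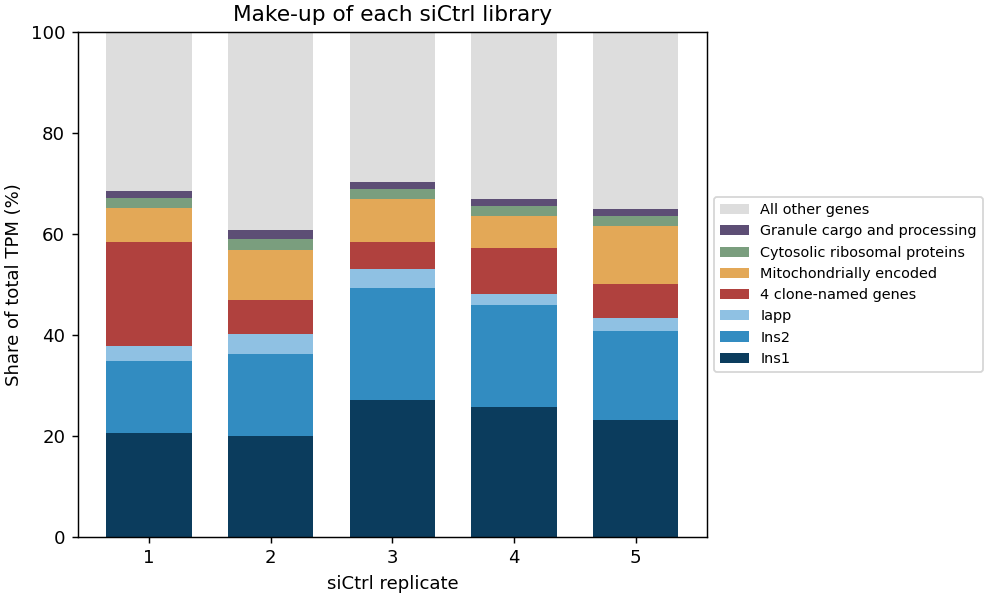
Share of total TPM (y axis, %) in each siCtrl replicate (x axis), stacked from 0 by gene or gene group. Ins1 and Ins2 range from 34.7% in replicate 1 to 49.2% in replicate 3, and the 4 clone-named genes take 20.6% of replicate 1 and at most 9.06% of any other library.

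All 13 mitochondrially encoded protein genes were kept, and they took 6.68%, 9.88%, 8.68%, 6.41% and 11.4% of the TPM in replicates 1 to 5. These genes encode core subunits of the respiratory chain and the ATP synthase. Mt-co1, the catalytic subunit of cytochrome oxidase, led with 16734, 19033, 26195, 17213 and 23974 TPM. It was followed by Mt-co3 (11678 ± 2444), Mt-cyb (8361 ± 1933), Mt-nd4 (6507 ± 2580) and Mt-co2 (6152 ± 1803). Mt-co1 lay above the range of Mt-co3, and each further neighbour down to Mt-nd6 overlapped the next.

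The libraries did not move together across these genes. In replicate 5 the 7 subunits of complex I (Mt-nd genes) took 45.6% of the mitochondrial TPM, against 32.5% to 34.4% in the other 4 libraries. The 3 cytochrome oxidase subunits took 39.2% there and 48.6% to 49.5% elsewhere. Mt-nd6, which is transcribed from the opposite strand to the others, stood at 3644, 3507, 4797, 3450 and 8382 TPM and was 2.30 times the median of the libraries in replicate 5. Mt-nd5 was at 2.17 times and Mt-nd4 at 2.00 times their medians in that library, whereas Mt-co2 was at 0.985 and Mt-atp6 at 1.00. The ratios of the Mt-nd genes and the others overlapped there, with Mt-nd3 at 1.08 and Mt-cyb at 1.28. All 7 Mt-nd genes were highest in replicate 5, and the other 6 were highest in replicate 3 on the deposited scale.

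**Figure D3:**
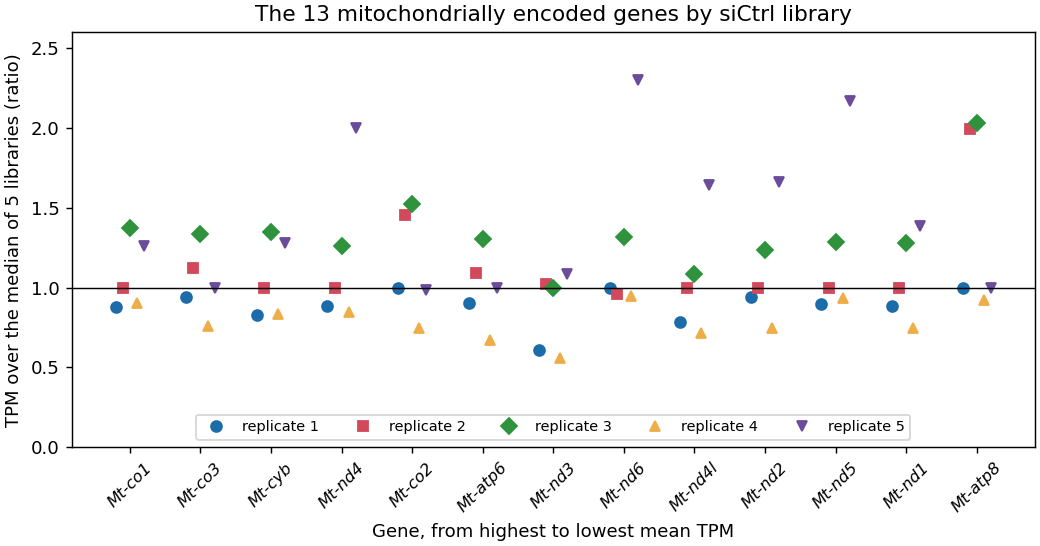
TPM of each of the 13 mitochondrially encoded genes divided by its median over the 5 siCtrl libraries (y axis, ratio), ordered from the highest to the lowest mean level (x axis), 1 symbol per replicate. Replicate 5 lies highest for the 7 Mt-nd genes, from 1.08 for Mt-nd3 to 2.30 for Mt-nd6, and between 0.985 and 1.28 for the other 6.

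The granule cargo and prohormone processing genes were among the highest of the named genes. Of 18 listed genes 16 were kept, with a median level of 697 TPM, and they took 1.50% ± 0.130 of TPM and 3.55% ± 0.259 of reads. After Scg2, Cpe and Resp18 came Pam, which amidates peptide ends, at 1061 ± 213 TPM, and Scg5, the chaperone of prohormone convertase 2, at 965 ± 68.5. Pcsk2 exceeded Pcsk1, the other prohormone convertase, by 1.80 ± 0.191 times within a library. Pcsk1n, an inhibitor of Pcsk1, was listed at 0 in all 5 libraries. Ndufs6, a complex I subunit that most cells use, was also listed at 0, so a value of 0 in this table need not mean that a gene was silent.

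The β-cell transcription factors stood far below the granule genes. Of 25 genes found, 21 were kept, with a median of 19.9 TPM, and they took 0.150% ± 0.0174 of TPM. Mafa, an activator of insulin transcription in mature cells, led with 474, 265, 470, 460 and 467 TPM. Replicate 2 was low beside the other 4 libraries, which lay between 460 and 474 TPM, and even there Mafa lay above every value of the next factor. Neurod1, which binds E-boxes, had 165 ± 19.3 TPM, Pax6 160 ± 16.7, Pdx1 148 ± 21.4 and St18 117 ± 6.39. The ranges of Neurod1, Pax6 and Pdx1 overlapped. Pdx1 stood at 148, 114, 157, 172 and 151 TPM, on the deposited scale lowest in the same library as Mafa. That library, replicate 2, had the smallest TPM sum, 821278, and the place of Pdx1 there depends on the scale. Nkx6-1 stood at 75.6, 68.8, 74.8, 77.6 and 77.9 TPM, the smallest spread of the 6 β-cell markers at 4.92%. Scrt1, the target of the study, was expressed at a low level in these control cells, with 8.78, 6.34, 8.60, 10.2 and 6.75 TPM.

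For glucose uptake and glycolysis 16 of 18 genes in the table were kept. Slc2a2, the low-affinity glucose transporter GLUT2, stood at 859, 821, 1028, 941 and 923 TPM and was the most abundant of the list, level with the pyruvate kinase Pkm at 881 ± 174, which it exceeded in only 2 of 5 libraries. Slc2a2 was 85.0 ± 17.6 times Slc2a1 within a library. Aldoa (477 ± 60.8), Gapdh (382 ± 88.3) and Eno1 (320 ± 50.3) followed. All 30 genes of pyruvate entry, the TCA cycle and its shuttles that were in the table were kept, led by the cytosolic malate dehydrogenase Mdh1 at 783 ± 84.6 TPM, above the range of malic enzyme Me1 (149 ± 20.2), with Mdh2 at 98.1 ± 11.5 and Sucla2 at 90.8 ± 10.2. Of 80 nuclear genes of the respiratory chain and ATP synthase 72 were kept, and they took 0.865% ± 0.0821 of TPM, against 8.60% ± 2.11 for the 13 mitochondrial genes. Atp5f1b (325 ± 30.4), Atp5f1e (317 ± 65.4), Cox7b (297 ± 37.2), Cox8a (289 ± 54.8) and Atp5if1 (282 ± 22.0) led with overlapping ranges.

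The machinery that makes and folds secreted protein was expressed throughout. All 49 genes of ER translocation, folding and stress response in the table were kept, with a median of 109 TPM and a share of 0.998% ± 0.171. Hspa5, the ER chaperone BiP, stood at 1289, 1262, 1016, 1058 and 888 TPM. Ero1b, an oxidase that recharges disulfide isomerases and is abundant in β-cells, had 814 ± 70.3, the lectin chaperone Calr 648 ± 69.3, the disulfide isomerase Pdia3 647 ± 64.4 and Hsp90b1 621 ± 88.1. Hspa5, Calr, Pdia3 and Hsp90b1 were all higher in replicates 1 and 2 than in replicates 4 and 5. Cytosolic ribosomal protein genes were kept in 79 of 92 cases and took 2.01% ± 0.203 of TPM. Rpl41 led with 1001 ± 141 TPM, above the range of Rpl35 (606 ± 70.9), Rps27a (589 ± 70.2), Rpl10 (586 ± 51.2) and Rpl36 (536 ± 124).

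Among the channels and pumps of excitability 27 of 33 were kept. Among the named members Atp1b1, the β-subunit of the sodium pump, was highest at 410 ± 35.9 TPM, and the calcium pumps Atp2a3 and Atp2a2 had 289 ± 45.3 and 180 ± 17.5. Abcc8, the sulfonylurea receptor, had 79.9 ± 6.94 TPM, close to its partner in the ATP-sensitive channel, Kcnj11, at 72.1 ± 6.50. Of 30 genes of the exocytosis machinery 28 were kept, led by Vamp8 (376 ± 52.4), Snap25 (269 ± 24.1), Syt13 (250 ± 39.5) and Syt4 (184 ± 22.0). These encode a vesicle SNARE, a plasma membrane SNARE and a pair of synaptotagmins.

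Of 27 receptor genes found, 22 were kept. The growth hormone receptor Ghr (130 ± 27.2 TPM) and the GLP-1 receptor Glp1r (111 ± 18.5) led with overlapping ranges, followed by the prolactin receptor Prlr (83.8 ± 8.13), Gipr (72.1 ± 22.0) and Cckar (67.6 ± 14.9). Glp1r stood at 112, 79.3, 126, 121 and 118 TPM, and like Mafa it was lowest in replicate 2. Gipr, the receptor of the other incretin, stood at 107, 71.6, 74.0, 58.2 and 49.5 TPM. The ratio of Glp1r to Gipr thus ran from 1.05 in replicate 1 to 2.38 in replicate 5. All 21 antioxidant genes were kept. Sod1 (670 ± 82.4) and thioredoxin Txn1 (275 ± 25.5) were the highest, followed by the peroxiredoxins Prdx1 (173 ± 18.2) and Prdx2 (142 ± 21.5) and by Gpx4 (137 ± 13.8).

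Genes that β-cells are known to hold low were low in all 5 libraries. Of 19 such disallowed genes 6 were kept, and the highest, the thioesterase Acot7, reached 4.38 ± 0.965 TPM. Oat (3.22 ± 0.461), Lmo4 (2.53 ± 1.09), Igfbp4 (2.27 ± 0.919) and Fcgrt (1.81 ± 0.334) followed. Ldha, the lactate dehydrogenase of glycolytic tissues, stood at 2.80, 0.0908, 0.527, 0.653 and 1.46 TPM, and Hk1, the high-affinity hexokinase, at most at 0.114. Progenitor and dedifferentiation genes were kept in 2 of 13 cases, Mycl (3.37 ± 0.564) and Hes1 (2.13 ± 0.763). Neurog3, Aldh1a3, Pou5f1 and Ptf1a were listed at 0 in all 5 libraries, which, as for Ndufs6, need not mean that they were silent. Of 24 genes of S and G2/M phase 8 were kept, led by Pcna at 28.0 ± 2.99 TPM, Aurkb at 11.8 ± 1.83, Rrm1 at 10.3 ± 0.490, Mcm4 at 9.85 ± 1.18 and Aurka at 9.43 ± 0.672. Mki67 and Top2a, which mark dividing cells, were below it at 0.390 and 0.321 TPM.

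Genes that respond to stress, handling or foreign RNA were examined because the cells had been sorted and transfected, and no untreated cells served as a reference. Of 21 immediate early and heat shock genes found, 17 were kept, and Hmox1 (318 ± 50.4 TPM), which degrades haem, and the chaperone Hsp90aa1 (143 ± 18.6) made up most of their TPM, before Btg2 (55.7 ± 3.52), Gadd45a (36.7 ± 1.57) and Jund (26.1 ± 3.50). The inducible heat shock gene Hspa1a averaged 3.85 TPM and was not kept. Of 24 interferon response genes 16 were kept. B2m, the light chain of class I MHC, carried 87.0% of the list's TPM at 490 ± 73.1, and the next were Irf1 (11.0 ± 0.646), Eif2ak2 (10.5 ± 1.13), Ddx58 (7.76 ± 1.53) and Irf9 (6.18 ± 0.133). Ifit1, Ifit3, Mx1 and Oas1a lay below 1 TPM on average.

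Markers of other pancreatic cells were uneven. In a bulk sample, fewer cells of a type and less RNA per cell cannot be told apart. Of 9 α-cell genes 5 were kept, with a summed level of 1504 to 2160 TPM. Gcg, the glucagon gene, stood at 624, 203, 452, 295 and 441 TPM, which made Ins2 229 to 661 times as abundant in TPM. That ratio depends on the length correction, which took Ins2 from 446 to 247 nt and Gcg from 1052 to 853 nt. In reads, Ins2 took 4.95% of a library on average and Gcg 0.0386%. Slc38a5 (706 ± 115) and Slc7a2 (234 ± 33.4), both amino acid transporters, Gc (309 ± 114), the vitamin D binding protein, and Tm4sf4 (96.0 ± 20.6) were also kept. The α-cell transcription factor Irx2, in contrast, averaged 0.344 TPM. Gcg and Gc did not follow each other, since Gcg was highest in replicate 1 and Gc in replicate 3.

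The hormones of δ- and PP-cells were lower and more variable. Of 6 markers 3 were kept, and their list summed to 47.9 to 195 TPM. Sst, which encodes somatostatin, stood at 59.0, 17.7, 71.1, 45.5 and 123 TPM, a CV of 61.6%, against 4.89% from counting reads alone. Ppy had 36.7 ± 14.0 and Pyy 15.6 ± 7.55. Replicate 2 was lowest for Gcg, Sst and Pyy, and close to the lowest for Ppy (22.2 against 21.8 TPM in replicate 4). Ghrl, the gene of ghrelin, was not kept because replicate 3 stood at 0.755 TPM, and the δ-cell factor Hhex averaged 0.196. The part of other endocrine cells in these values was not tested here. The authors stained sorted β-cell fractions and on average found nearly all cells insulin-positive and very few glucagon-positive. Whether the cells of these libraries were among those stained is not stated.

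Cells outside the islet left little trace. Of 16 acinar genes 1 was kept, and the whole list summed to 1.65 to 3.94 TPM. Another 5 were listed at 0, which again need not mean that they were silent. Endothelial genes summed to 1.55 to 2.41 TPM, with Esam kept at 1.40 ± 0.357, and immune genes to 4.27 to 8.08, with C1qa kept at 3.26 ± 1.07. No gene of 10 mesenchymal, 6 Schwann cell or 4 red-cell markers was kept, and their lists summed to at most 4.40, 2.93 and 1.68 TPM. The duct list was the exception, at 129 to 182 TPM, of which Krt7 gave 86.0%. Krt7 stood at 123, 107, 141, 157 and 140 TPM, while Krt19 had 1.67 ± 0.632, and the duct genes Sox9, Cftr, Spp1 and Muc1 averaged 0.210, 0.154, 0.187 and 0.0352 TPM. Krt7 thus stood well above these other duct markers.

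**Figure D4:**
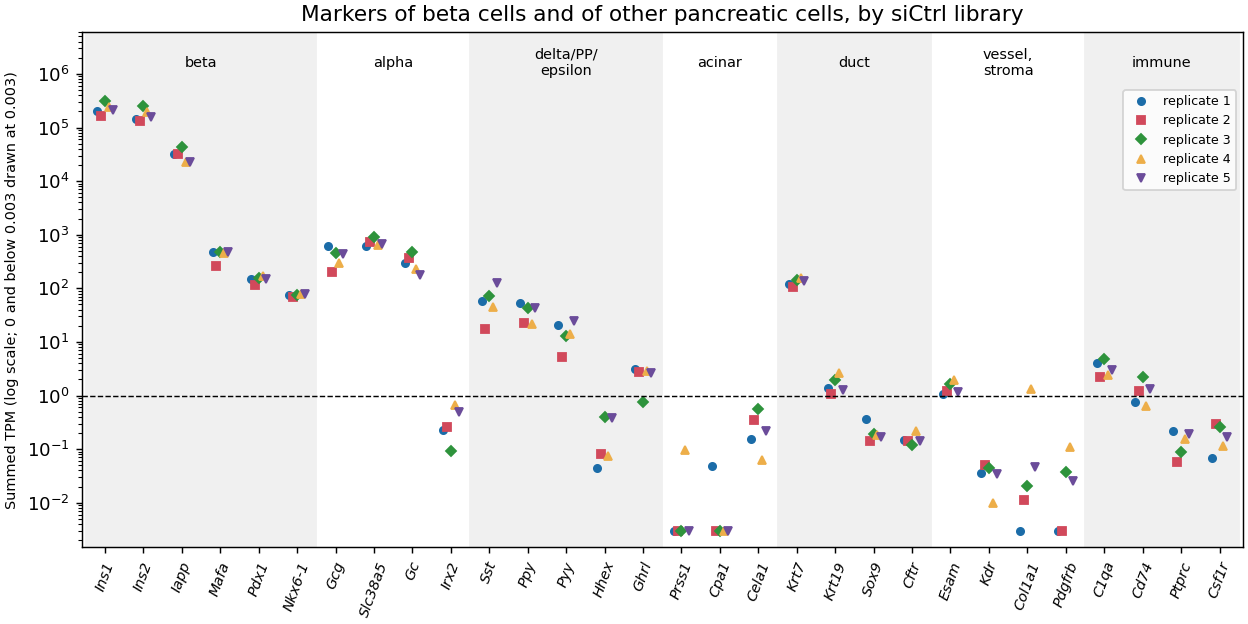
Summed TPM (y axis, log scale) of markers of β-cells and of other pancreatic cells (x axis), 1 symbol per siCtrl replicate, with a dashed line at the threshold of 1 TPM and values of 0 or below 0.003 drawn at 0.003. The 6 β-cell markers lie at or above 68.8 TPM in every library, Gcg between 203 and 624, Sst between 17.7 and 123, and the acinar, stromal and vascular markers near or below the line.

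The spread between libraries was largest at the top of the ranking. The median CV of the kept genes was 11.8% on the deposited scale and 16.9% when each library was rescaled to the same TPM sum, and counting reads alone would give 5.04% at the median. By level, the median CV was 18.7% in genes of 1 to 3 TPM, fell to 9.68% in genes of 30 to 100 TPM and was 24.8% in the 32 genes of 1000 TPM or more. The counting share shrank over the same classes from 11.9% to 2.76% and 0.427%, so depth does not limit the values at the top. Of the 6411 genes with a mean of at least 10 TPM, 3087 (48.2%) had a CV under 10% and 58 (0.905%) had one over 50%. Of those 58, 32 carried only a clone or placeholder name, although such genes made up 7.80% of the 6411.

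**Figure D5:**
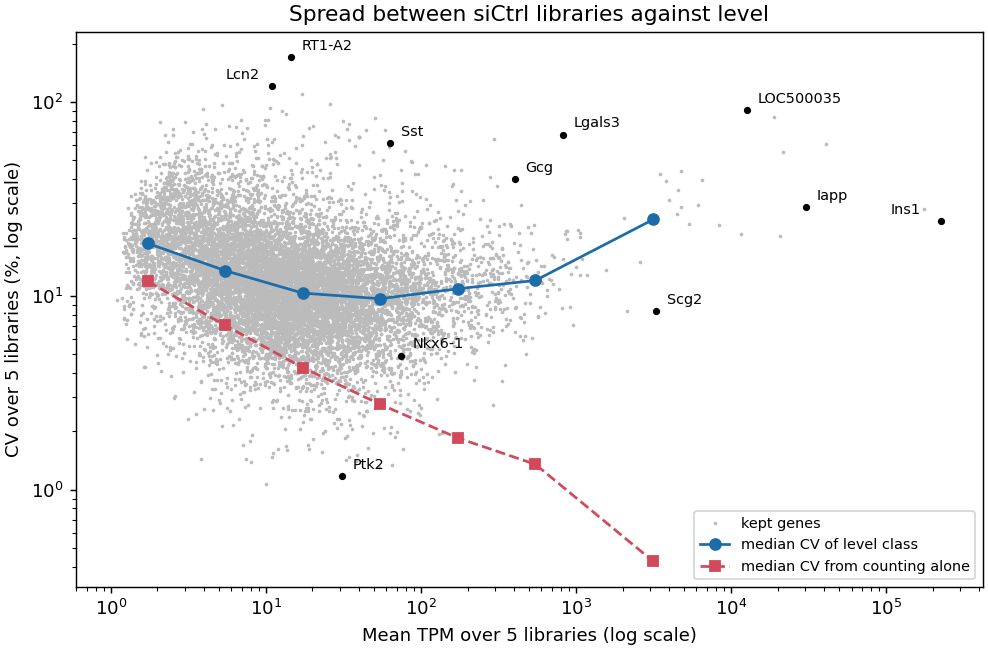
CV of TPM over the 5 siCtrl libraries (y axis, %, log scale) against mean TPM (x axis, log scale) for each kept gene, with the median CV of 7 level classes (circles) and the median CV that counting reads alone would give (squares). The last class holds 32 genes of 1000 TPM or more and is drawn at the centre of 1000 to 10000. The medians part as the level rises, to 24.8% against 0.427%.

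On the deposited scale, replicate 3 was the highest library for 29.3% of these 6411 genes and replicate 2 for 25.6%, against 13.9% to 17.1% in the other 3. Few genes departed far from the rest: between 8 and 34 genes per library were more than 2-fold above the median of the other 4, with the most in replicate 1, and 16 to 37 were more than 2-fold below it, with the most in replicate 2. Within the lists, the median CV of kept members was 10.2% for the ER genes and 10.5% for the TCA cycle and for channels and pumps. It was 12.0% for the β-cell factors, 29.3% for the mitochondrially encoded genes and 39.1% for the hormones. The hormone list includes hormones of other islet cells. Ucn3, Ins1, Ins2 and Iapp had CVs of 12.9%, 24.3%, 28.0% and 28.8%, and Ppy, Gcg and Sst had 38.2%, 40.0% and 61.6%.

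The genes chosen for the largest spread were of several kinds. RT1-A2, a class I MHC gene of the rat, stood at 3.45, 4.05, 58.9, 3.25 and 3.19 TPM and was thus high in replicate 3 alone. Lcn2, an iron-siderophore binding protein of inflammation, stood at 1.39, 32.6, 4.61, 15.3 and 1.15 TPM. Lgals3 (galectin-3) was the most abundant of them at 1127, 561, 211, 1639 and 587 TPM, and the zinc transporter Slc39a1 stood at 608, 146, 283, 134 and 312. Ints6l, an Integrator subunit relative, stood at 1.39, 27.3, 22.3, 13.7 and 2.25 TPM and Ifi27l2b at 25.6, 93.4, 101, 18.1 and 17.0. Replicates 2 and 3 were the highest libraries of Ints6l, Ifi27l2b and Bcat1 (8.37, 18.1, 20.0, 5.03 and 4.91 TPM), a branched-chain aminotransferase. In TPM, Intu was high in replicate 1 alone (50.1 against 2.73 to 11.5). Its reads, however, were 65, 53, 52, 71 and 61 in replicates 1 to 5. The Intu transcript of highest mean TPM had an effective length of only 7.29 nt. Rps18l1, a relative of a ribosomal protein gene whose reads may be shared with it, ran from 1.06 in replicate 5 to 63.4 in replicate 2. Il17d ran from 1.63 to 61.4 TPM, but it had only 11 to 25 reads per library and an effective length of 6.67 nt. Counting alone gives it a CV of 24.4%, against 76.9% in TPM.

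The genes chosen for the smallest spread had CVs under 2%. Ptk2, a focal adhesion kinase, stood at 31.3, 31.4, 31.3, 30.6 and 30.8 TPM, a CV of 1.18%. Ahsa1 (a co-chaperone of Hsp90), Cab39, the mitochondrial processing peptidase Pmpcb, the phosphatase Ptpra, the proteasome subunits Psmd14 and Psmd12, Ogfod3, the splicing factor Sf3b3 and the nuclear export receptor Xpo5 had CVs of 1.32% to 1.61%. Each of these 10 values is below the CV that counting gives for the gene (2.10% to 7.10%), so they mark the low tail of the 6411 genes ranked and do not single these genes out as the steadiest in the cell.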

How the data were processed

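RNA was taken with the miRNeasy micro kit, and TruSeq libraries were sequenced single-end. The authors assigned reads with kallisto to transcripts of build Rnor6 and scaled the result between libraries with sleuth; FastQC and Trimmomatic are also in the submitters' processing notes, and versions are not given in the sources used here. The deposited table holds TPM and estimated counts as scaled signal values per transcript. TPM sums therefore differed from 1000000 and ran from 821278 to 1153952. A further 9363 rows without values were left out.

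TPM were summed over transcripts by gene with Python 3.11.15 and pandas. Reads were estimated by dividing estimated counts by the most frequent low value, the worth of 1 read, from 0.921 to 1.10; 46.9% to 48.7% of transcript values above 0 were then whole within 0.001, the others being shared between transcripts. Counting CVs come from these reads and cover counting error only. Symbols, which 52 kept rows share, were those of the table; promoters from RefSeq GRCr8 matched 8097 kept genes by symbol.

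The members and gene lists were chosen with earlier results of these data known. Named genes were the 25 highest, the 5 highest kept members of each list (every kept member for other cell types), the 6 β-cell markers, the 10 of largest and 10 of smallest CV from 10 TPM upward, and 3 on each side of the threshold. Genes with clone names were named only among the 25 highest, and some genes that met the rule are not reported here. Mt-nd subunits, paralogs set against a named gene, Scrt1, and list members below the threshold were named after their values were seen. The CV and scaling steps were tested on simulated data. Alternatives were other thresholds, scalings, denominators and length corrections, and leaving out each library.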

Additional observations from a re-analysis of the deposited data

Results flagged for a closer look

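The TPM of the named genes and the shares of TPM in the gene lists were examined for a library far from the others. Dixon's criterion at its 5% level was used. Other values given above, such as the shares of the Mt-nd and cytochrome oxidase genes within the mitochondrial TPM, were not examined in this way. The counts below therefore leave out the departure of replicate 5 in those shares. Of 164 groups of 5 values examined, 21 met the criterion. Chance alone flags about 1 in 20 groups, here about 8, and genes and lists that share reads or a library are not independent. In 10 of the 21 the library was replicate 3, in 5 replicate 1, in 4 replicate 2, and in 1 each replicates 4 and 5. Only 2 of the 21 were genes chosen for their large spread.

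Replicate 1 was high in AABR07015057.1 (84674 TPM), AABR07015081.2 (43030 TPM), AABR07000398.1 (47413 TPM) and LOC500035 (32818 TPM), whose values in the other libraries are given above, and in Intu (50.1 TPM against 2.73 to 11.5). In reads, Intu did not stand out in replicate 1, at 65 against 52 to 71 in the others.

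Replicate 3 was high in the granule genes Cpe (3289 TPM against 2345 to 2612), Resp18 (1931 against 1391 to 1516) and Pam (1434 against 910 to 1026). It was also high in Atp5f1b at 379 TPM (306 to 319 in the others), Atp5f1e at 432 (274 to 306), Cox8a at 384 (252 to 282), Sod1 at 812 (608 to 666) and Prdx2 at 179 (128 to 139). Vamp8 stood at 467 TPM (337 to 370 in the others) and RT1-A2 at 58.9 (3.19 to 4.05). Replicate 3 had the largest TPM sum of the 5, 1153952. With every library rescaled to the same sum, replicate 3 remained the highest library for 3 of these 10 genes (Atp5f1e, Cox8a and RT1-A2), and RT1-A2 alone of the 10 still met the criterion. Equal sums do not remove differences in make-up: Ins1 and Ins2 took 49.2% of TPM in replicate 3 and 36.2% in replicate 2. The median CV of the kept genes was 11.8% before this rescaling and 16.9% after it.

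Replicate 2 was low in Mafa (265 TPM against 460 to 474) and Glp1r (79.3 TPM against 112 to 126). The granule cargo genes took 1.73% of its TPM (1.41% to 1.46% in the others), and the cytosolic ribosomal proteins took 2.37% (1.86% to 1.95%). Replicate 2 had the smallest TPM sum, 821278, by which these shares are divided. Mt-nd6 was high in replicate 5 (8382 TPM against 3450 to 4797), and Rrm1 was low in replicate 4 (9.42 TPM against 10.3 to 10.7). After rescaling, replicate 2 was still the lowest library for Mafa and Glp1r, though neither met the criterion, and Rrm1 was no longer lowest in replicate 4. Mt-nd6 and, of the genes high in replicate 1, all but AABR07015057.1 still met it. The cause of these departures was not tested.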

How the results depend on the processing

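The number of kept genes stayed within 1.5 times of 11032 under every alternative: 11855 at 0.5 TPM, 10075 at 2 TPM, 11672 in at least 3 of 5 libraries, 11063 with TPM rescaled, and 11081 to 11120 without 1 library. Shares depend most on length correction and denominator. In estimated counts, the 10, 100 and 1000 highest genes took 23.3%, 35.6% and 56.5%, Ins1 and Ins2 11.3%, granule cargo 3.55% and cytosolic ribosomal proteins 0.980%. Without Ins1 and Ins2 in the total, the remaining genes of the top 10, 100 and 1000 took 28.9%, 47.8% and 70.6%, granule cargo 2.57%, mitochondrially encoded genes 14.8% and ribosomal proteins 3.44%. Without clone-named genes in the total, Ins1 and Ins2 took 47.5%. The remaining alternatives for shares were chosen after seeing the data. With full transcript length the 10, 100 and 1000 highest took 51.4%, 63.2% and 78.3%, Ins1 and Ins2 33.4% and granule cargo 1.94%. Without the 4 clone-named genes of the top 10, the 100 highest took 66.1%, granule cargo 1.66% and ribosomal proteins 2.23%. Without 1 library, Ins1 and Ins2 ranged from 39.4% to 43.0%. The median CV was 16.9% with TPM rescaled to the same sum, 11.8% with median-ratio size factors, 18.2% with no filter and 10.6% to 12.2% without 1 library. Of 19 genes with an outlying library, 6 still met the criterion after rescaling. The median Pearson's r was 0.983, and 0.990 over all genes. Rescaling moved 11 of 136 named genes by over 1 SD, and the median of 5 libraries none. No paired analysis was possible because a single group was described.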
